A study of Mus musculus with 4 samples.

Results

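Neuropeptide genes encode precursor proteins from which short signalling peptides are cut. The 8 genes described here were Sst (somatostatin), Npy (neuropeptide Y), Nts (neurotensin), Tac1 (substance P and neurokinin A), Tac2 (neurokinin B), Cck (cholecystokinin), Pnoc (nociceptin) and Penk (enkephalins). They were taken by symbol from the 27998 genes of the Illumina tables, and 14 of the 31986 isoform rows of the Nanopore tables belonged to them. A single E18 C57BL/6 mouse gave the cells, from cortex, hippocampus and (sub)ventricular zone combined; there was no treatment or genetic change, and no second animal. A single 10x Genomics Chromium emulsion was split in aliquots of 190 and 951 cells. Each aliquot was sequenced by Illumina, which counts molecules by gene, and by Nanopore, which reads them at length and counts them by isoform, so there were 2 libraries per platform. The aliquots are technical replicates that hold different cells of the same suspension. A p-value over them measures technical spread and the sampling of cells, not spread between animals.

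A neuropeptide precursor enters the secretory pathway, where prohormone convertases cut it at pairs of basic residues, carboxypeptidases trim the ends and, for several of these peptides, an amidating enzyme finishes the product. The peptides are stored in dense-core vesicles and act on G protein-coupled receptors. In the forebrain Sst, Npy and Pnoc are known from GABAergic interneurons, Tac1 and Penk from striatal projection neurons, and Cck from both interneurons and pyramidal neurons.

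The coding sequences of the released peptides are shown to place the transcripts on the genome. All 14 isoform rows matched Gencode vM21 with their version (the authors used vM18), and coordinates are GRCm38. Capitals mark the codons of a mature peptide, which is somatostatin-14 for Sst and cholecystokinin-8 for Cck. Lower-case letters mark the neighbouring codons, including those of the basic cleavage sites.
Somatostatin in Sst-201: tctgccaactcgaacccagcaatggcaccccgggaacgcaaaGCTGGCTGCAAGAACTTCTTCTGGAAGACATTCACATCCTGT
Neuropeptide Y in Npy-201: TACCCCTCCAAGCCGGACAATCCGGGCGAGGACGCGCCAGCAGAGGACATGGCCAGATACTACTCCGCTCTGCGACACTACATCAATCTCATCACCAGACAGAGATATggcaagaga
Neurotensin in Nts-201: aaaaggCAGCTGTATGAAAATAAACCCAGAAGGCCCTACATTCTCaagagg
Neurokinin B in Tac2-201: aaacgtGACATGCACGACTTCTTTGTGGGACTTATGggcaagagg
Substance P in Tac1-205: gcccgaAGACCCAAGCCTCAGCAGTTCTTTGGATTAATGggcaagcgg
Neurokinin A in Tac1-205: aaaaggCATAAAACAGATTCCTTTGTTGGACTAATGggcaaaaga
Cholecystokinin in Cck-201: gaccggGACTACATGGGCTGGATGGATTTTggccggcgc
Nociceptin in Pnoc-201: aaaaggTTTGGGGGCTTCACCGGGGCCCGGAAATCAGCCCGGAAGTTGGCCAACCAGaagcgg
First enkephalin copy in Penk-202: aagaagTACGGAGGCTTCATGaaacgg
The Sst stretch lies at chr16:23889732-23889815 on the minus strand, the Nts stretch at chr10:102482349-102482399 (minus), and the Cck stretch at chr9:121490098-121490136 (minus). The Pnoc stretch lies at chr14:65404836-65404898 (minus), the Penk stretch at chr4:4134328-4134354 (minus), and substance P at chr6:7556726-7556773 (plus). All of these lie within single coding exons. The Npy stretch (chr6:49823682-49827501, plus), the Tac2 stretch (chr10:127728473-127729154, plus) and the neurokinin A stretch (chr6:7557740-7559139, plus) each span an intron. In Npy the intron parts the codons of the peptide. In Tac2 and neurokinin A it parts only the lower-case codons before the peptide, whose own codons lie in a single exon.

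Of 1141 barcodes, the 1121 with at least 1400 Illumina genes were kept (186 and 935). The kept cells held 1809081 and 8295650 Illumina UMIs and 993220 and 4889148 Nanopore UMIs. A UMI is the tag that counts 1 captured molecule. Clustering without the 8 genes gave 8 classes, named from marker genes, and 5 cells were set aside as microglia-like or pericyte-like. In the 190 and 951 cell aliquots the classes held 18 and 126 MGE interneuron-like cells (MGE, the medial ganglionic eminence), 30 and 143 striatal GABAergic neuron-like cells, 43 and 236 mature and 41 and 202 immature glutamatergic neuron-like cells. The smaller classes were radial glia-like (13 and 55 cells), cycling progenitor-like (24 and 93), intermediate progenitor-like (14 and 62) and Cajal-Retzius-like (3 and 13). Of the 2 clusters called mature glutamatergic neuron-like, 1 rested on 5 of 16 markers with a mean log2 fold of 0.15. Erythroid markers gave at least 1 UMI in 1085 of the 1121 cells (median 4 UMIs per cell), though no cluster was named erythroid. Whether these UMIs came from RNA outside the cells was not tested. In both aliquots 12 barcodes occurred.

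Most cells had no neuropeptide UMI, and the UMIs of each gene sat in few cells. No UMI of any of the 8 genes was found in 726 of 1121 cells. Sst had 596 Illumina UMIs in 59 cells, and 14 of those cells, with at least 10 UMIs each, held 83.4% of them. Npy had 702 UMIs in 123 cells, of which 14 cells held 68.7%. Nts had 218 UMIs in 42 cells, of which 5 held 64.2%, and 1 cell alone held 75 UMIs (34.4%). These 3 genes were thus counted mainly from a small group of cells with very many copies. Cck was spread more widely, with 699 UMIs in 200 cells and 45.5% of them in 15 cells. Tac2 had 90 UMIs in 17 cells, with 4 cells holding 55.6%, and Pnoc had 95 UMIs in 38 cells, with 2 cells holding 31.6%. Tac1 (17 UMIs in 9 cells) and Penk (18 UMIs in 10 cells) had no cell with 10 UMIs.

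**Figure D1:**
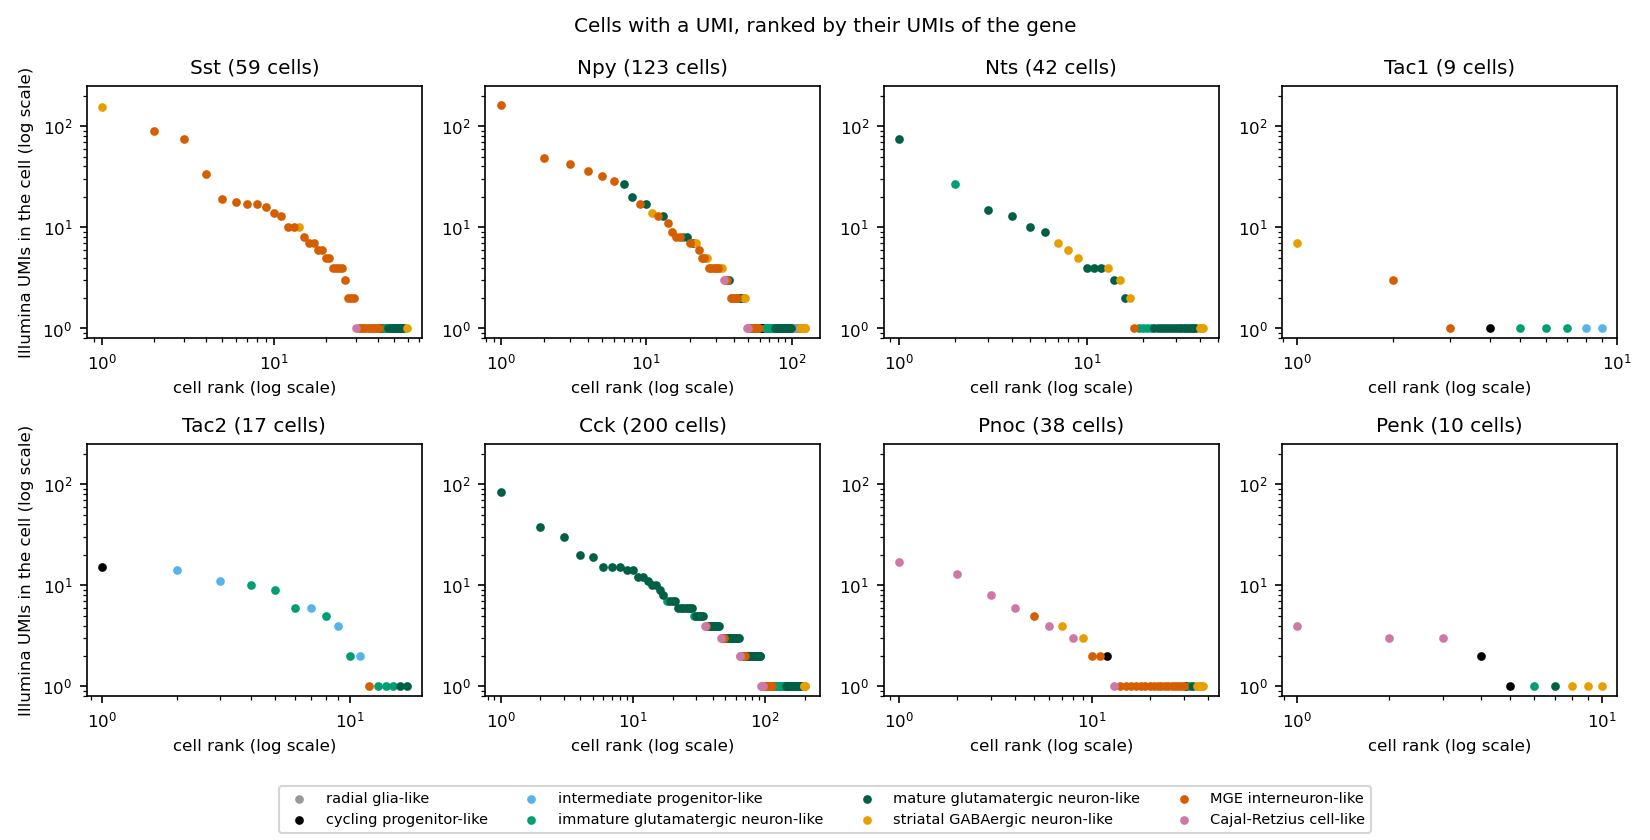
Illumina UMIs of each gene (vertical axis, log scale) in every cell with at least 1 UMI, ranked from the highest (horizontal axis, log scale), with points coloured by cell class. The steep left ends are the few cells with most UMIs, such as the 155-UMI Sst cell of the striatal GABAergic neuron-like class, and the flat right ends are the cells with 1 UMI; 1 set-aside cell with 1 Npy UMI is not drawn.

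For cells with a single UMI and for the others, the same molecules were sought in the Nanopore counts. These counts cover only UMIs assigned to an annotated isoform, and the paper could assign only part of its Nanopore UMIs. A molecule that was read but not assigned thus counts here as not found. Among 30 cells with 1 Illumina UMI of Sst, 6 also had a Nanopore UMI of Sst (exact binomial 95% interval of the share 7.71% to 38.6%). The share was 18 of 75 for Npy (14.9% to 35.2%), 3 of 25 for Nts (2.55% to 31.2%) and 29 of 108 (26.9%, 18.8 to 36.2) for Cck. For Pnoc it was 18 of 26 (69.2%, 48.2 to 85.7). Over all genes the share was 50.6%. Cells with 2 or more Illumina UMIs were found again far more often, 28 of 29 for Sst, 46 of 48 for Npy, 17 of 17 for Nts, 77 of 92 for Cck and 12 of 12 for Pnoc, where the share over all genes was 80.1%. A cell with more UMIs had more chances to hold any Nanopore UMI, so this contrast was partly fixed beforehand and is no test. The isoform-assigned Nanopore count of the gene as a whole was not low for Sst, Npy and Nts. These genes had 0.81, 0.83 and 0.77 Nanopore UMIs per Illumina UMI against 0.60 over all genes. Among 2796 genes with 0.7 to 0.95 Nanopore UMIs per Illumina UMI and at least 20 single-UMI cells, the median share was 79.3%, and 5 of them lay below the value of Sst, 7 below Npy and 1 below Nts. Single UMIs enter both this ratio and the share, so the 2796 genes were chosen on a value tied to the share. For Sst, Npy and Nts the ratio came mainly from the few cells with 10 or more UMIs. Their ranks among the 2796 genes are therefore no test. Without the limit on the ratio, the median share over 10084 genes with at least 20 single-UMI cells was 48.6%. Of these genes 22.8% lay below Sst, 26.9% below Npy, 14.9% below Nts and 29.4% below Cck.

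The recovery of single UMIs was also counted by class, but only for these genes. The share over all genes was not taken by class, so a general difference between classes cannot be told apart. In MGE interneuron-like cells 6 of 11 single Sst UMIs, 8 of 9 single Npy UMIs and 15 of 17 single Pnoc UMIs had a Nanopore counterpart, whereas no single Sst UMI of any other class had one. Single Npy UMIs had one in 3 of 9 striatal GABAergic neuron-like and 3 of 22 mature glutamatergic neuron-like cells. Single Pnoc UMIs had one in 2 of 4 striatal GABAergic neuron-like cells and in 1 of 1 cycling progenitor-like cell. No single Pnoc UMI of the other classes had one. In the mature glutamatergic neuron-like class, where Cck and Nts were high, 12 of 45 single Cck and 2 of 16 single Nts UMIs had a counterpart, while 4 of 4 single Cck UMIs of Cajal-Retzius-like cells did. In MGE interneuron-like cells 7 of 16 single Cck UMIs had a counterpart, and in immature glutamatergic neuron-like cells 6 of 21. A counterpart was missing for all 8 single Cck UMIs in radial glia-like and all 6 in intermediate progenitor-like cells. The same held for all 4 in cycling progenitor-like and all 4 in striatal GABAergic neuron-like cells. Over all kept cells Cck had 0.52 Nanopore UMIs per Illumina UMI, against 0.60 over all genes. In radial glia-like cells, which are not known as a source of neuropeptide Y, 15 of 68 cells had an Npy UMI (22.1%), all of them single, and 2 had a Nanopore UMI. That share was close to the 25.7% of MGE interneuron-like cells, but with median depths of 10677 and 4922.5 UMIs and with 0 against 28 cells holding 2 or more UMIs. A Nanopore UMI was never found in a cell without an Illumina UMI of the gene, since the authors' assignment of Nanopore reads was guided by the Illumina UMIs. The part of free RNA from outside the cells in the low recovery was not tested.

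**Figure D2:**
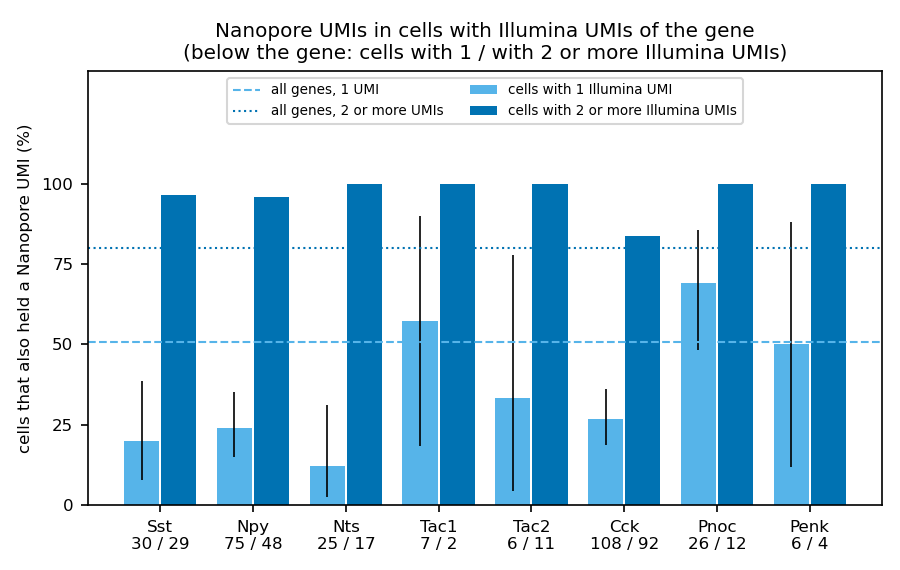
Share of cells (percent, vertical axis) that also held a Nanopore UMI of the gene, among cells with 1 Illumina UMI (light bars, with exact binomial 95% intervals) and with 2 or more (dark bars); lines give the same shares over all genes. Sst, Npy, Nts and Cck single-UMI cells lie under the 50.6% of all genes, while their cells with 2 or more UMIs lie at 83.7% or above. Cells with more UMIs have more chances to be found, so light against dark bars is no test.

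Sst, which marks interneurons born in the medial ganglionic eminence, was highest in the MGE interneuron-like cells. Its level there was 437 CPM (UMIs per 1000000 UMIs of the class) in the 190 cell aliquot and 593 CPM in the 951 cell aliquot. In the striatal GABAergic neuron-like class it was 6.08 and 198 CPM, and in the 6 other classes it was at most 7.98 CPM. Both aliquots of the MGE class thus lay above every other value, but the second striatal value came from 1 cell that held 155 of the 165 UMIs. An Sst UMI was found in 26.4% of MGE interneuron-like cells (95% interval 19.4 to 34.4), in 19.4% after thinning each cell to 2000 Illumina UMIs, and in 3.94% of mature glutamatergic neuron-like cells, all single there. The low and high ends of the single cells were far apart: 27 MGE interneuron-like cells had at least 2 UMIs, 12 had 10 to 89, and 38 of 144 had any.

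Npy, a peptide of several interneuron types, followed the same order at the top. It was at 291 and 734 CPM in the MGE interneuron-like class, 42.6 and 48.0 CPM in the striatal GABAergic neuron-like class, and 24.0 and 40.4 CPM in the mature glutamatergic neuron-like class. The MGE values were above all others, and the values of the next pair of classes lay close together, with the 951 cell value of the mature glutamatergic class near both striatal values. After thinning, 18.8% of MGE interneuron-like, 4.62% of striatal GABAergic neuron-like and 4.30% of mature glutamatergic neuron-like cells had an Npy UMI (25.7%, 9.25% and 11.1% unthinned). In the mature glutamatergic class 4 cells held 27, 20, 17 and 13 Npy UMIs, and all 4 had 0 Sst UMIs.

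Pnoc was the third gene found mainly outside the glutamatergic neurons. It was at 68.0 and 30.7 CPM in MGE interneuron-like cells, 0 and 13.2 CPM in striatal GABAergic neuron-like cells, and 0 and 0.62 CPM in immature and 1.84 and 0 CPM in mature glutamatergic neuron-like cells. Unlike Sst and Npy, its UMIs in the MGE class were thinly spread, with 26 UMIs over 20 cells and 17 of those cells at a single UMI. Its highest level was in the Cajal-Retzius-like cells, early-born neurons of the cortical surface, with 52 UMIs in 7 of 13 cells of the 951 cell aliquot (415 CPM) and 0 in the 3 cells of the other aliquot.

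**Figure D3:**
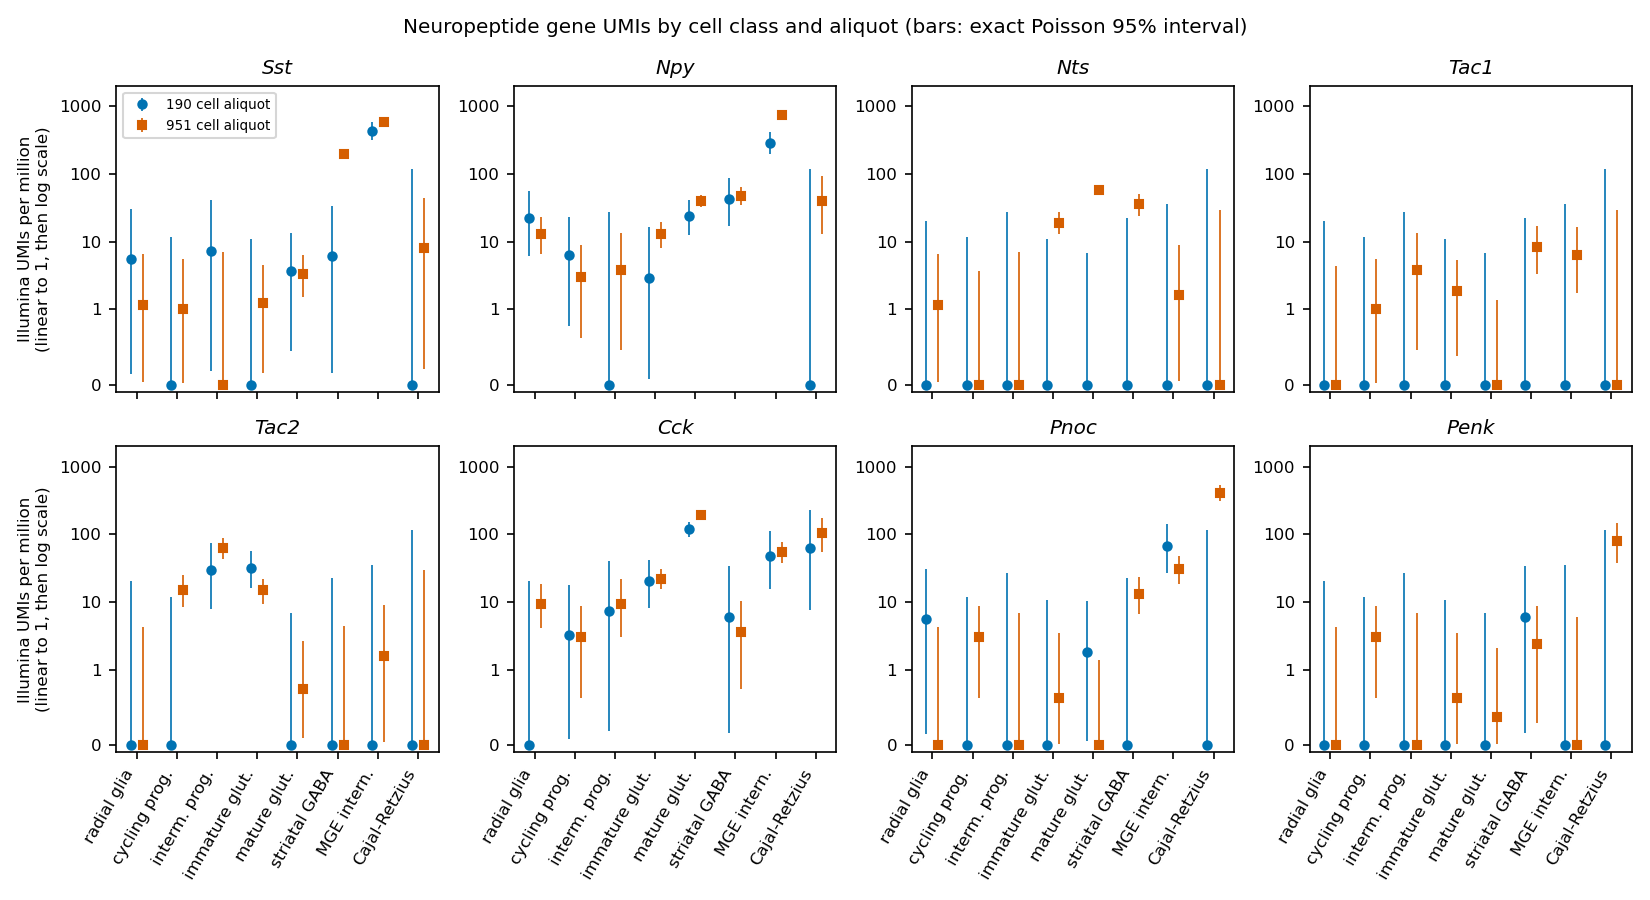
Illumina CPM of each gene (vertical axis, linear to 1 and log above) in 8 cell classes, with circles for the 190 cell and squares for the 951 cell aliquot and bars for the exact Poisson 95% interval, which covers counting error only. Sst and Npy peak in the MGE interneuron-like class (437 and 593, 291 and 734), Cck in the mature glutamatergic neuron-like class (120 and 192), while Tac2 is highest in intermediate progenitor-like (29.4 and 62.3) and immature glutamatergic neuron-like cells (32.3 and 14.8), and Nts and Tac1 are at 0 in all classes of the 190 cell aliquot.

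Between GABAergic and glutamatergic neurons, 4 of 6 members with enough UMIs to be tested were called, 3 of them higher in GABAergic neurons. The test was edgeR's quasi-likelihood test on UMIs summed per class and aliquot, with Benjamini-Hochberg adjustment over 8316 genes, of which 3.72% were called higher and 6.82% lower. Sst was higher by 6.97 on the log2 scale (SE 0.78, adjusted p = 0.00082). Npy was higher by 2.97 (SE 0.41, adjusted p = 0.00067) and Pnoc by 5.03 (SE 0.95, adjusted p = 0.00013). Cck fell by 2.03 (SE 0.35, adjusted p = 2.3e-05). Each side averaged unlike classes. In the striatal class Sst was at 6.08 and 198 CPM, the latter mainly from the 155-UMI cell, and Pnoc at 0 and 13.2 CPM. Both genes were higher in the MGE class. Cck in the MGE class (48.6 and 54.9 CPM) lay above the immature glutamatergic class, and its striatal values (6.08 and 3.60 CPM) were the lowest of the 4 classes. From the 951 cell aliquot alone and from the 190 cell aliquot alone, which leave no test, the differences were 7.26 and 5.11 for Sst, 6.16 and 2.32 for Pnoc, 2.98 and 3.51 for Npy, and -2.25 and -1.58 for Cck. Tac2 had a log2 difference of -2.99 (adjusted p = 0.23) and Nts one of -1.86 (adjusted p = 0.69), neither called. With the aliquot as a block Nts was called as well (-2.09, adjusted p = 0.0013), where 5.92% of genes were called higher and 10.8% lower. The 190 cell aliquot had no Nts UMI, so the Nts call rested on the 951 cell aliquot alone and was not replicated. On Nanopore sums Sst, at 0 in every glutamatergic sum, was not called (adjusted p = 0.12). Tac1 and Penk did not pass the filter.

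Within the GABAergic neurons, Npy and Cck rose in the MGE interneuron-like over the striatal GABAergic neuron-like class. Npy was higher by 3.47 (SE 0.49, adjusted p = 0.0033) and Cck by 3.56 (SE 0.60, adjusted p = 0.00010), against 1.25% of 8316 genes called higher and 1.53% lower. The 951 and 190 cell aliquots alone gave 3.85 and 2.55 for Npy and 3.81 and 2.69 for Cck, without a test. The Sst difference was 1.81 (SE 0.64, adjusted p = 0.31) and did not pass. That value turned on the 155-UMI cell: without it the difference was 5.45 (adjusted p = 9.6e-15). The cell had UMIs of 5 of 14 MGE markers and of 2 of 15 striatal markers. It had 2 UMIs of Nkx2-1, a transcription factor of the medial ganglionic eminence. It had 0 UMIs of Lhx6, Maf and Gad1 from the MGE list and of Isl1, Ebf1 and Meis2 from the striatal list. At clustering resolution 1.2 it stayed in the striatal GABAergic neuron-like class. It moved to the MGE interneuron-like class when the peptide genes, Sst among them, were kept for clustering. The cell was left out after seeing the data, and which class it belongs to was not tested. With the aliquot as a block Sst (1.78, adjusted p = 0.010) and Nts (-4.38, adjusted p = 0.00027) were also called. Of all genes 2.55% were then called higher and 3.29% lower. The Nts call rested on the 951 cell aliquot alone, since the 190 cell aliquot had no Nts UMI.

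Sst and Npy were found together in MGE interneuron-like cells. At 2 or more UMIs, 27 of these cells had Sst, 28 had Npy and 16 had both, which is 59.3% of the Sst cells and 57.1% of the Npy cells, where 19.4% of the class had Npy. At 10 or more UMIs, 12 had Sst, 9 had Npy and 5 had both. The cell with most Npy (162 UMIs) had 75 Sst UMIs, and the next in order had 49 Npy and 34 Sst UMIs, and 42 Npy and 89 Sst UMIs. High Sst without Npy also occurred, as in cells with 19, 18 and 16 Sst UMIs and 0 Npy UMIs. Of 20 MGE interneuron-like cells with a Pnoc UMI, 4 had an Sst UMI and 1 had an Npy UMI. In the whole class 38 of 144 cells had an Sst UMI and 37 had an Npy UMI. These are counts of cells of 1 suspension, given without a test.

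**Figure D4:**
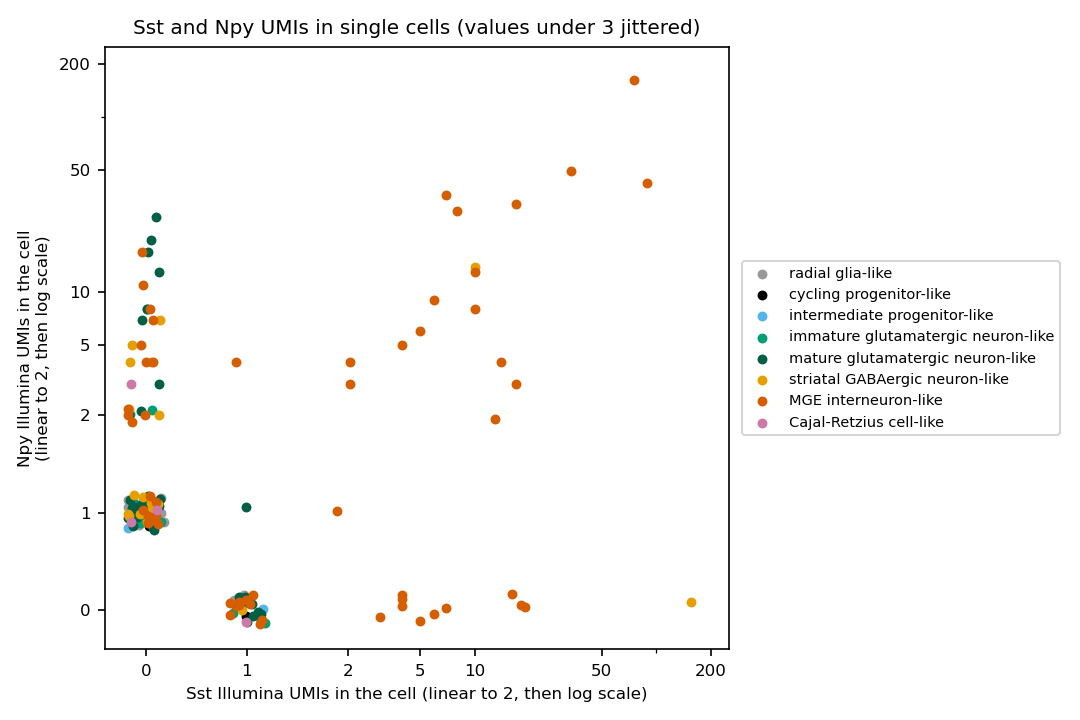
Sst (horizontal axis) and Npy (vertical axis) Illumina UMIs of every cell with a UMI of either gene, linear to 2 and log above, with values under 3 jittered and points coloured by cell class. The upper right is held by MGE interneuron-like cells and 1 striatal GABAergic neuron-like cell (10 Sst, 14 Npy), while the 155-UMI Sst cell lies at 0 Npy and the 4 mature glutamatergic neuron-like cells with most Npy at 0 Sst.

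Cck was the leading member of the mature glutamatergic neuron-like class. It was at 120 and 192 CPM in the mature glutamatergic neuron-like class, 20.5 and 22.3 CPM in the immature one, 48.6 and 54.9 CPM in MGE interneuron-like cells, and 6.08 and 3.60 CPM in striatal GABAergic neuron-like cells. Both mature values lay above the others of these 4 classes. The aliquots stood near each other in the immature and MGE interneuron-like classes and further apart in the mature class. The striatal values rested on 1 and 3 UMIs. A Cck UMI was found in 42.3% of mature glutamatergic neuron-like cells (95% interval 36.4 to 48.3), and in 19.7% after thinning, against 11.1% and 3.70% of immature ones. The 2 clusters of the mature class did not keep their order: they were at 217 and 52.9 CPM in the 190 cell aliquot and at 129 and 250 CPM in the 951 cell aliquot.

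Nts was found in the 951 cell aliquot and not in the other. There it was at 57.9 CPM in mature and 19.2 CPM in immature glutamatergic neuron-like cells and 36.0 CPM in striatal GABAergic neuron-like cells, and at 0 CPM in all 3 classes of the 190 cell aliquot. An Nts UMI was found in 42 of 935 cells (4.49%) and in 0 of 186 cells, which allows a share of up to 1.61%. The Nanopore counts also held 0 Nts UMIs for those 186 cells. Their assignment was guided by the Illumina UMIs, so this 0 was fixed beforehand and adds no support. The immature glutamatergic value came mainly from 1 cell with 27 of 31 UMIs. In the striatal GABAergic neuron-like class 6 cells had 2 to 7 Nts UMIs, and all 5 cells with 10 or more were glutamatergic.

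From immature to mature glutamatergic neurons, Cck rose and Tac2 fell. Cck was higher in the mature class by 2.95 (SE 0.32, adjusted p = 1.3e-08) and Tac2 lower, at -4.66 (SE 0.94, adjusted p = 0.0013), where 2.36% of 8316 genes were called higher and 1.47% lower. The 951 and 190 cell aliquots alone gave 3.19 and 2.61 for Cck and -4.05 and -6.02 for Tac2, without a test. The 190 cell value of Tac2 rested on 11 UMIs in 2 immature cells, 10 of them in 1 cell. Npy had a difference of 1.77 (SE 0.62, adjusted p = 0.21) and Nts one of 1.44 (adjusted p = 0.82); both were called with the aliquot as a block (1.82, adjusted p = 1.0e-05, and 1.66, adjusted p = 0.00010), where 6.96% of genes were called higher and 4.41% lower. The 190 cell aliquot had no Nts UMI, so the Nts call with the block rested on the 951 cell aliquot alone. Npy was also called without its top cell, an MGE interneuron-like cell (1.77, adjusted p = 0.0043), with doublets left out (2.35, adjusted p = 0.014) and with no filter on low counts (1.73, adjusted p = 9.4e-05). The Cck and Tac2 calls rested on where the clusters were parted. At clustering resolution 1.2, with 302 immature and 211 mature cells in place of 243 and 279, the difference was 0.43 for Cck (adjusted p = 0.77) and -0.89 for Tac2 (adjusted p = 0.91). The Tac2 call was also lost with the peptide genes kept for clustering (-1.48, adjusted p = 0.72) and with DESeq2 (adjusted p = 0.43).

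Tac2, known in the adult from hypothalamic and other discrete neurons, had its highest levels in intermediate progenitor-like and immature glutamatergic neuron-like cells. It was at 29.4 and 62.3 CPM in intermediate progenitor-like cells, the committed progenitors of glutamatergic neurons, and at 32.3 and 14.8 CPM in immature glutamatergic neuron-like cells. It was at 0 and 15.1 CPM in cycling progenitor-like cells, from 1 cell with 15 UMIs, at 0 and 0.75 CPM in the mature class, and at 0 in both aliquots of the radial glia-like and striatal GABAergic neuron-like classes. Few cells carried it: 5 of 76 intermediate progenitor-like cells (6.58%) and 8 of 243 immature cells (3.29%), with 2 to 14 UMIs in the former. All 11 cells with 2 or more Tac2 UMIs were found again by Nanopore. Against radial glia-like cells the intermediate progenitor-like level was at least 19.1-fold higher, from 55.6 CPM over both aliquots and a floor of 3 UMIs in the whole radial glia-like class (2.92 CPM). Tac2 was the 1 member called (adjusted p = 7.0e-05), where 6.69% of genes were called higher and 7.89% lower. DESeq2 did not call it (adjusted p = 0.064).

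Tac1 and Penk, peptide genes of striatal projection neurons, were near the detection limit. Tac1 had no Illumina UMI in the 190 cell aliquot, so no Nanopore UMI could be matched there. Of its 17 UMIs, 7 sat in 1 striatal GABAergic neuron-like cell. That cell had 7 of 15 striatal markers, with 53 UMIs of Ebf1, 5 of Isl1 and 13 of Meis2, which are transcription factors of the developing striatum. The next cell was MGE interneuron-like, with 3 Tac1 UMIs beside 17 Sst and 32 Npy UMIs. Penk had 10 of its 18 UMIs in 3 Cajal-Retzius-like cells with 4, 3 and 3 UMIs, and 3 UMIs in 3 of 173 striatal GABAergic neuron-like cells. At this depth no striatal peptide pattern was detectable for either gene.

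The Nanopore tables gave each gene's UMIs by isoform. Sst, Npy, Nts and Tac2 had a single isoform row each, with 483, 581, 168 and 77 UMIs. Cck, Pnoc, Tac1 and Penk had 2 or 3. Of the 50 cells with at least 2 Cck Nanopore UMIs, 24 had more than 1 Cck isoform, and so did 8 of 11 cells for Pnoc.

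Cck-201 was the main Cck isoform, with 281 of 360 UMIs (78.1%, exact binomial 95% interval 73.4 to 82.2), followed by Cck-203 with 78 (21.7%) and Cck-204 with 1. The Cck-201 share was 58.3% (40.8 to 74.5) in the 190 cell aliquot and 80.3% (75.5 to 84.4) in the 951 cell aliquot. Cck-201 and Cck-203 have the same coding sequence of 115 codons, so both encode the cholecystokinin stretch printed above, and they differ at the 5′ end. Cck-203 begins with a longer first exon of 524 bases, and its 1 junction is also 1 of the 2 junctions of Cck-201. In cells with 10 or more Cck Illumina UMIs the Cck-201 share was 92.5% (88.0 to 95.6, 212 Nanopore UMIs in 15 cells), while it was 56.3% (46.9 to 65.4, 119 UMIs in 62 cells) in cells with 2 to 9 and 62.1% (42.3 to 79.3, 29 UMIs in 29 cells) in cells with 0 or 1. The highest group lay above the 2 to 9 group in each aliquot, at 90.9% against 31.6% and at 92.5% against 61.0%, but the 90.9% came from 1 cell with 11 Nanopore UMIs, and the cells with 0 or 1 of that aliquot were at 83.3% (5 of 6 UMIs). The groups were set after seeing the data and are given without a test. Cck-203 was the more evenly spread isoform, with 78 UMIs in 60 cells against 281 UMIs in 70 cells. Whether Cck-203 molecules start at its own first exon could not be read from the tables, which hold no read ends.

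**Figure D5:**
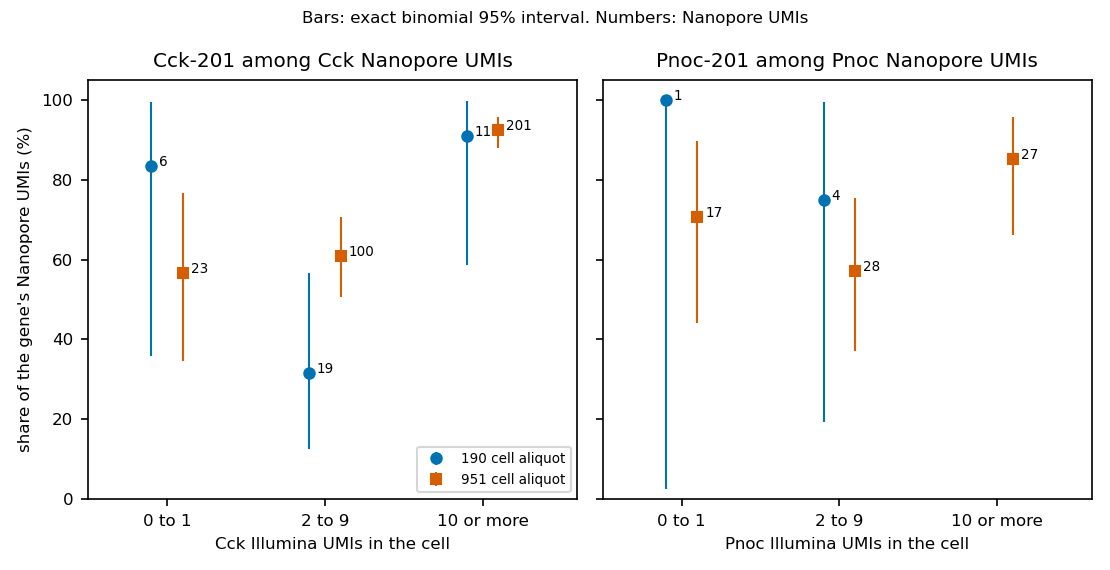
Share of Cck-201 among Cck Nanopore UMIs (left) and of Pnoc-201 among Pnoc Nanopore UMIs (right), in percent on the vertical axis, for cells grouped by their Illumina UMIs of the gene, with circles for the 190 cell and squares for the 951 cell aliquot, bars for the exact binomial 95% interval and numbers for Nanopore UMIs. Cck-201 reaches 90.9% and 92.5% in cells with 10 or more Cck UMIs and lies at 31.6% and 61.0% in cells with 2 to 9.

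Pnoc-201 had 55 of 77 UMIs (71.4%) and Pnoc-202 had 22 (28.6%). They share the first 184 codons, which include the nociceptin stretch, and part at the end of coding exon 3, at position 65404704 of chromosome 14 in Pnoc-201 and 65404760 in Pnoc-202, after which Pnoc-201 has 187 codons in all and Pnoc-202 has 212. Penk-202 had 10 of 11 UMIs and Penk-201 had 1. Penk-202 has an additional first exon, and its annotated model stops inside the coding sequence after 178 codons and 3 of the 7 enkephalin copies of Penk-201, so the count of copies made from a Penk-202 molecule cannot be read from these tables.

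Tac1 is the gene whose splicing decides which tachykinins are made, and its exons are shown for that reason. Tac1-203 had 8 of 12 UMIs, Tac1-205 had 3 and Tac1-201 had 1. In exon 6 below, capitals mark the 15 bases that encode the end of neurokinin A, and exon 4 is in lower case throughout.
Tac1 exon 6: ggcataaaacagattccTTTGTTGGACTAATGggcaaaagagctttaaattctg
Tac1 exon 4: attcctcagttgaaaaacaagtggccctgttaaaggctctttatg
Exon 6 (chr6:7559099-7559152, plus strand, 54 bases) is absent from Tac1-201, and exon 4 (chr6:7557216-7557260, 45 bases) is absent from Tac1-203, while Tac1-205 has both. Both exons keep the reading frame. Of the 12 Tac1 UMIs, 11 were thus assigned to isoforms that hold the neurokinin A codons, and all 12 to isoforms with the substance P exon.

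Isoform usage was tested between classes with edgeR's diffSpliceDGE over 618 genes, and Cck was the single member with enough UMIs. It was not called in any of the 4 comparisons. The adjusted p was 0.89 between GABAergic and glutamatergic neurons (2.91% of genes called), 0.96 between the GABAergic classes (1.13%), 0.81 between the glutamatergic classes (2.27%) and 1 between progenitors (3.56%). In the Cajal-Retzius-like cells all 15 Cck Nanopore UMIs were Cck-201, and in the mature glutamatergic neuron-like cells 242 of 309 were.

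Between platforms, most members had a larger share of the Nanopore than of the Illumina UMIs. Of 6 members tested over 9855 genes, Tac2 was called, higher in Nanopore by 0.73 (SE 0.23, adjusted p = 0.040), with 20.2% of genes called higher and 30.3% lower. Sst (0.64), Npy (0.64), Pnoc (0.60) and Nts (0.59) had similar differences that did not pass, and Cck had -0.03. With the aliquot as a block, where 32.9% of genes were called higher and 37.9% lower, 5 of 6 were called, all higher: Sst by 0.62 (adjusted p = 6.3e-06), Npy by 0.65 (adjusted p = 5.3e-06), Tac2 by 0.70 (adjusted p = 0.0033), Pnoc by 0.62 (adjusted p = 0.0089) and Nts by 0.54 (adjusted p = 0.0012). The Nts value rested on the 951 cell aliquot alone, since Nts had no UMI in the 190 cell aliquot. Cck stayed at -0.03 (adjusted p = 0.77), and its 360 Nanopore UMIs were 0.52 of its 699 Illumina UMIs. Within cells the Pearson r of Illumina and Nanopore UMIs was taken over cells with an Illumina UMI. It was 0.998 for Sst (59 cells), 0.997 for Npy (123), 0.999 for Nts (42) and 0.974 for Cck (200). The Spearman values, which depend less on the few highest cells, were 0.937, 0.883, 0.953 and 0.735 in the same order. Both platforms read the same cDNA, and the assignment of Nanopore UMIs was guided by the Illumina UMIs of the cell. High values were thus partly fixed beforehand and are no test of the platforms.

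The machinery that makes, stores and reads peptides was followed with 4 gene lists. Genes of these lists were tested at the main setting only. Their calls between mature and immature glutamatergic neurons used the parting of clusters on which the Cck and Tac2 calls rested. Whether these list calls hold at the alternative clustering resolution was not tested. Of 34 other neuropeptide precursors 23 had a UMI and 2 were tested. Grp, which encodes gastrin-releasing peptide, was lower in GABAergic than in glutamatergic neurons (-3.88, adjusted p = 0.00010) and higher in mature than in immature ones (2.09, adjusted p = 0.0095). Of 22 receptors of the members' peptides 14 had a UMI and 3 were tested. Sstr2, a somatostatin receptor, was at 272 and 192 CPM in intermediate progenitor-like and 120 and 68.6 CPM in immature glutamatergic neuron-like cells, and at 0 and 3.23 CPM in MGE interneuron-like cells. It was higher in intermediate progenitor-like than in radial glia-like cells (5.02, adjusted p = 1.3e-05), lower in mature than in immature neurons (-2.52, adjusted p = 0.0026), and lower in GABAergic than in glutamatergic neurons (-2.27, adjusted p = 0.013). The receptor was thus counted mainly in other classes than its ligand gene Sst.

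Of 20 peptide processing genes 9 were tested. Between the GABAergic classes 2 rose, with a median log2 difference of 0.94 over the 9 genes where that of all genes was -0.03; from immature to mature glutamatergic neurons 1 rose, and between progenitors 2 rose and 1 fell. Of all genes 1.25%, 2.36%, 6.69% and 7.89% were called in these comparisons and directions. Pcsk1n, an inhibitor of a prohormone convertase, was higher in MGE interneuron-like than in striatal GABAergic neuron-like cells (1.57, adjusted p = 7.5e-06). It was also higher in mature glutamatergic neurons (1.36, adjusted p = 3.8e-05), which was not tested at the alternative clustering resolution. Ctsl, a lysosomal protease, was higher in the MGE class as well (2.10, adjusted p = 0.0047) and lower in intermediate progenitor-like than in radial glia-like cells (-1.76, adjusted p = 0.00064). Pam, the amidating enzyme (2.10, adjusted p = 1.9e-05), and Scg5, a convertase chaperone (1.62, adjusted p = 8.5e-06), were higher in intermediate progenitor-like than in radial glia-like cells.

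Of 18 secretory granule genes 10 were tested; 3 fell in GABAergic against glutamatergic neurons, 1 fell between the GABAergic classes, 1 rose in mature glutamatergic neurons and 4 rose between progenitors. Of all genes 6.82%, 1.53%, 2.36% and 6.69% were called in these comparisons and directions. Syt4, a vesicle synaptotagmin (-2.82, adjusted p = 3.4e-14), Chga, a granin (-0.77, adjusted p = 0.038), and Rab3a, a vesicle GTPase (-0.56, adjusted p = 0.040), were lower in GABAergic neurons. Chga (4.60, adjusted p = 3.0e-07), Snap25 (2.59, adjusted p = 0.013) and Syt4 (2.46, adjusted p = 0.00059) were higher in intermediate progenitor-like than in radial glia-like cells. Syt4 was higher in mature than in immature glutamatergic neurons (0.86, adjusted p = 0.014), which was not tested at the alternative clustering resolution. Slc18a2, a vesicular monoamine transporter, was at 0 in MGE interneuron-like cells and at 24.3 and 36.0 CPM in striatal GABAergic neuron-like cells (adjusted p = 0.0089). The median log2 difference of the 10 tested granule genes was 1.88 between progenitors, where that of all genes was -0.01, and -0.40 between GABAergic and glutamatergic neurons, where that of all genes was -0.05.

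The genes most like each member were ranked by Pearson r over the 14 class-by-aliquot sums, among 5858 genes. They were Snhg11 (0.94), Maf (0.91) and Tceal6 (0.90) for Sst, and Snhg11 (0.95), Elmo1 (0.93) and Gria1 (0.92) for Npy. For Tac2 they were Sstr2 (0.93), Unc5d (0.92) and Bckdha (0.91), and for Cck Sh3gl2 (0.93), Bend6 (0.92) and Ptprd (0.90). Rpp25 (0.90), Maf (0.89) and Nxph1 (0.88) were nearest to Pnoc, and no gene reached 0.8 for Nts. The 14 points share libraries and depth, and Maf and Nxph1 were among the markers used to name the MGE class. Unc5d was among those for the immature glutamatergic neuron-like class, and Snhg11 among those for the Cajal-Retzius-like class.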

How the data were processed

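The deposited Illumina tables hold UMI counts per gene and cell, which the authors made with Cell Ranger 2.0. The deposited Nanopore tables give, for each cell, the UMI counts of annotated isoforms (Gencode vM18), which the authors made with minimap2 and Sicelore (mm10), guided by the Illumina barcodes and UMIs; isoform rows were summed per gene here. Cells with fewer than 1400 Illumina genes were left out.

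Cells were clustered with Seurat 5.3.0 (CCA, 2000 variable genes, 11 dimensions, resolution 0.8) without the 8 genes and the peptide lists; thresholds for naming clusters from markers were set after the clusters were seen. Scrublet (scanpy 1.11.5) marked 3 of 186 and 4 of 935 cells as doublets, which were left out in an alternative. UMIs summed per class and aliquot, for the 7 classes that had 5 or more cells per aliquot, were tested in 1 fit with edgeR 4.0.16 (TMM, filterByExpr, robust quasi-likelihood F-test); an adjusted p under 0.05 was called. DESeq2 1.42.0, no filter, the aliquot as a block, Nanopore sums, resolution 1.2 and clustering with the peptide genes were further alternatives. Scripts were tested on simulated data. Intervals are exact, at 95%, and cover counting error only; a count of 0 allows up to 3 counts.

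Aliquot numbers pair the samples, since both platforms read the same cells: deviations of the platforms correlated at 0.60, and those of the classes at a median of 0.23 (0.13 to 0.35 over 21 pairs). The 8 genes and all lists were chosen with earlier results of these data known. Named genes were the members, up to 3 called genes per list, comparison and direction with the largest change and 50 or more UMIs, and the 3 genes most correlated with each member at r of 0.8 or more. Sequences were read from GRCm38 with Gencode vM21, and peptides were located by their known end residues or position.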

Additional observations from a re-analysis of the deposited data

Results flagged for a closer look

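The Cajal-Retzius-like class, with 3 and 13 cells, was too small to enter the tests, and 4 of the 8 genes gave more UMIs there than the 3 that a count of 0 allows. There were 52 UMIs of Pnoc, 15 of Cck, 10 of Penk and 5 of Npy. Pnoc was found in 7 of the 16 cells (43.8%, also after thinning to 2000 UMIs), and 45 Nanopore UMIs were found in 6 of these cells. The 2 cells with most Pnoc of the whole data set, at 17 and 13 UMIs, belonged to this class, and the first had 10 of 11 Cajal-Retzius markers. All 3 Penk cells were found again by Nanopore with 6 UMIs, and Nanopore also counted 15 Cck UMIs. No Npy UMI was found by Nanopore in this class. All Pnoc and Penk UMIs came from the 951 cell aliquot, so there is no replicate for either.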

How the results depend on the processing

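The aliquot as a block raised the members called between platforms from 1 to 5, between the GABAergic classes from 2 to 4 and between the glutamatergic classes from 2 to 4. It also added Nts between GABAergic and glutamatergic neurons (5 in place of 4), and it changed no other call. Over all genes the block raised the calls as well, from 4976 to 6972, 231 to 486, 318 to 946 and 876 to 1390 in the same order. DESeq2 called 0 between platforms, 1 between the glutamatergic classes and 0 between progenitors, and no filter on low counts gave 0 between platforms. Over all genes DESeq2 also called fewer, 3071 in place of 4976 between platforms and 83 in place of 318 between the glutamatergic classes. Between progenitors it called 547 in place of 1212. With no filter 4964 of 12556 genes were called between platforms. Leaving out 1 library gave log2 differences between platforms from -0.25 to 1.48 for Sst, -0.51 to 1.504 for Npy and -8.95 to 8.91 for Nts. For Cck they ran from -0.71 to 0.40 and for Pnoc from -0.69 to 1.35. Each of these fits set 1 aliquot on 1 platform against both aliquots on the other. Nts had no UMI in the 190 cell aliquot on either platform. At resolution 1.2 the glutamatergic comparison had 0 members called, and Pnoc there turned from -0.28 to 0.40. With peptide genes kept for clustering the glutamatergic comparison had 1 member called. Over all genes these settings called 246 of 8081 and 316 of 8425, where the main setting called 318 of 8316. The causes were not tested. Leaving out cells with shared barcodes or the cell with most UMIs of a member, both chosen after seeing the data, is given in the text where it changed a call. In all, 39 counts of members called, among them counts of 0, stayed within 1.5 times the main count, 9 were lower and 3 higher. Of the log2 differences of single members, 240 kept their direction and, where tested, their side of the threshold. A call was lost by 12 and gained by 15, and 8 reversed. Another 18, which had no test, moved by at least 1 SE or changed sign where the main result was not called. The 8 do not include those sign changes. When cells were thinned or 2 or more UMIs were asked for, 47 shares of cells left their interval and 13 did not. With 1 aliquot left out no test between classes is left, and 2 aliquots of 1 mouse give no measure of spread between animals.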
